A study of Mus musculus with 24 samples.

Results

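The GABA-A receptor is a chloride channel that opens when it binds GABA, the main inhibitory transmitter of the cortex, and it is built as a pentamer of subunits, usually alpha, beta and gamma or delta. The alpha subunit sets much of the receptor's location and drug response: alpha 2 and alpha 3 receptors sit largely at synapses, alpha 5 receptors largely outside them, and alpha 4 joins delta in extrasynaptic receptors that carry tonic current. Transcripts of 7 subunit genes, Gabra2, Gabra3, Gabra4, Gabra5, Gabrb1, Gabrb2 and Gabrd, were followed here in mouse visual cortex, out of 55414 genes in the count table. The 7 genes were taken by name, and all 7 were among the 14464 genes tested. The other 12 GABA-A receptor subunit genes were used for context.

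Visual cortex RNA (poly-A selected) came from C57BL/6J male mice, 8 weeks old at the experiment and kept on a reversed light cycle, with 6 libraries in each of 4 groups. The sources used here do not say that each library came from a separate mouse, so p-values measure the spread between these libraries, which may be in part technical. In the dark group the mice received PBS and stayed in the dark, and in the light group they received PBS and were moved into light. The psilocybin-dark group and the psilocybin-light group received 5 mg/kg psilocybin, a serotonergic psychedelic, before staying in the dark or being moved into light. All brains were taken 2.5 h later, in what was the dark phase for every animal. The groups follow the headings that the study set over its raw counts, which equal the deposited counts for 1457 of 1457 genes compared. The sample labels give each of the 24 libraries the same drug but the opposite light exposure. Under those labels every light against dark difference below changes sign, psilocybin-dark against dark becomes psilocybin-light against light, and psilocybin-light against dark becomes psilocybin-dark against light. The converse holds for psilocybin-light against light and psilocybin-dark against light, and psilocybin-light against psilocybin-dark and the interaction of light and psilocybin change sign. Library totals ranged from 13552500 to 17907000 reads (6 significant digits). A normalised count is a library's count scaled by TMM to a mean effective library of 16058300 reads.

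Several libraries stood apart from the others before any subunit was considered. A list of 7 cerebellum marker genes summed to between 16504 and 59191 normalised counts in libraries 1 and 6 (dark), 12 (psilocybin-dark) and 18 (light), and to between 302 and 1519.8 in the other 20. A list of 9 hippocampus markers summed to 1093 to 5572 in the dark group, against 545 to 791 in the light, 489 to 663 in the psilocybin-dark and 418 to 644 in the psilocybin-light group, so that the dark group did not overlap the others. Fibcd1, a marker of hippocampal CA1 cells, carried most of that sum, with a median of 1878 in the dark group and 164 in the light group. A list of 12 visual cortex neuron markers summed to 45672 to 71077 in the dark group and to 70558 to 90346 across the other 3 groups. Of these 12, 8 were called higher in light against dark, 8 in psilocybin-dark against dark and 9 in psilocybin-light against dark, and none was called lower. The labelled tissue was present in every library, since Slc17a7, the glutamate transporter gene of cortical excitatory neurons, was at 11156 or more throughout, lowest in library 1. Other lists (striatum, thalamus, hypothalamus, choroid plexus, astrocytes, oligodendrocytes, microglia and endothelium) had 0 to 3 genes called in each comparison with dark, of 2 to 9 tested per list. Among all genes 31.9%, 24.7% and 38.4% were called in the same 3 comparisons. Of 6 astrocyte genes 1 was called higher and 2 lower in each. Both hypothalamus genes tested were called lower in light and in psilocybin-dark against dark. Their list summed to 27.4 to 164 in the dark group and to at most 46.7 in the others. They were thus near the filter on low counts outside the dark group, and their lower calls carry no weight. All 7 cerebellum genes were called lower in psilocybin-light against dark, and 0 in light or psilocybin-dark against dark. The dark group therefore differed from the others in regional markers as well as in treatment. Where they change a call or a direction in the comparisons with dark, values are also given without libraries 1, 6, 12 and 18 (a choice made after seeing the data), without dark libraries 2 to 5, which leaves libraries 1 and 6, and with the hippocampus list as a covariate. As the hippocampus list did not overlap between the dark group and the others, that covariate cannot be fully separated from the group. With it the SE of Gabra2 in light against dark went from 0.17 to 0.29, and 0 of all genes were called in psilocybin-dark against dark. A call lost with it therefore does not tell a treatment difference from a regional one. In bulk tissue, fewer cells of a type and less RNA per cell cannot be told apart.

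Gabra2, Gabra4 and Gabrb1 lie together on chromosome 5 in the GRCm39 annotation that carries the files' gene identifiers. Gabra2 (ENSMUSG00000000560) spans 71114573 to 71253662 on the minus strand and Gabra4 (ENSMUSG00000029211) 71721738 to 71815722, also minus. Gabrb1 (ENSMUSG00000029212) runs the other way from 71815456 to 72319431, so that the 5′ ends of Gabra4 and Gabrb1 overlap by 267 bases head to head. Gabra5 (ENSMUSG00000055078) lies at 57055164 to 57240831 on chromosome 7, minus strand. Gabrb2 (ENSMUSG00000007653) is on chromosome 11 at 42310493 to 42523417, plus strand. Gabra3 (ENSMUSG00000031343) is on chromosome X at 71476275 to 71700723, minus strand, and Gabrd (ENSMUSG00000029054) on chromosome 4 at 155469407 to 155482872, minus strand. The strand setting of the read counting is not given in the sources used here. Exons of Gabra4, Gabra5 and Gabrb1 overlap those of genes on the opposite strand, by 396 bases between Gabrb1 and Commd8, 148 between Gabra5 and Gm9962 and 101 between Gabra4 and Gabrb1. Reads from those bases cannot be placed with certainty.

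Promoter sequences from RefSeq (GRCm38.p6, a different build from the coordinates above) were found for 6 of the 7 genes, all but Gabrd. The 250 bases before the start are shown for the 3 genes that were lower than dark in all 3 groups, Gabra2, Gabra5 and Gabrb1, and for the 1 that was higher, Gabra4. They run 5′ to 3′ on the gene's own strand, and capitals mark CpG dinucleotides.
Gabra2, chr5:71095850-71096099, minus strand: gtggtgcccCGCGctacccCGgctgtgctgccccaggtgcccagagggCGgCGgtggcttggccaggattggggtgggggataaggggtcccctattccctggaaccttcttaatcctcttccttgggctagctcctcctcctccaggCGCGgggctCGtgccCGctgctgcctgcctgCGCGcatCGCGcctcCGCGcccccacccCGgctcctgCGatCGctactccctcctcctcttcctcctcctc
Gabra5, chr7:57510060-57510309, minus strand: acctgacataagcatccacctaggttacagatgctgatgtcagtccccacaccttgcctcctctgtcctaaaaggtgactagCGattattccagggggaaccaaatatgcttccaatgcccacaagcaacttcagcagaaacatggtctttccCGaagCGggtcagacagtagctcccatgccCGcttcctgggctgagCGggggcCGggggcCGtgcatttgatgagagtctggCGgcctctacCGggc
Gabrb1, chr5:71657671-71657920, plus strand: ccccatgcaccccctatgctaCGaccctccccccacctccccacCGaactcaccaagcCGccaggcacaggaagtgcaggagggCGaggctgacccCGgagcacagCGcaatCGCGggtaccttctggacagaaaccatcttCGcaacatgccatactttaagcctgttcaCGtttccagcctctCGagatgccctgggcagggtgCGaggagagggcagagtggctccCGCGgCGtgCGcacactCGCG
Gabra4, chr5:71658309-71658558, minus strand: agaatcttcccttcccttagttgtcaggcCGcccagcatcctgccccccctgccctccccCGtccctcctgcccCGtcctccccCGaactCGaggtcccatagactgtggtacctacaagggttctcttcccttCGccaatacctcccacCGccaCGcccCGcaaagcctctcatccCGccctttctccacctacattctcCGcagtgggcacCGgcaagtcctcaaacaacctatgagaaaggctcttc
GC content was 70% for Gabra2, 56.4% for Gabra5, 64.4% for Gabrb1 and 61.2% for Gabra4, against a median of 52.4% over 32851 promoters. CpG dinucleotides numbered 18, 9, 18 and 12 in the same order, against a median of 6. A second Gabrb1 window, chr5:71699682-71699931, is not shown and had 50.8% GC and 6 CpG dinucleotides. In RefSeq, too, the starts of Gabra4 (71658308) and Gabrb1 (71657921) face each other, with 388 bases shared. The window of each gene therefore lies inside the transcribed part of its neighbour. These adjacent genes moved in opposite directions in the comparisons with dark described below.

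None of these 4 windows held the letters of 4 activity-linked motifs, read on both strands. The cAMP response element (TGACGTCA) was present in 1.55% of all promoter windows, the AP-1 site (TGANTCA) in 6.75%, the Egr site (GCGNGGGCG) in 4.70% and the E-box (CACGTG) in 6.02%. The only match among the 6 genes was an Egr site in the first of 3 Gabrb2 windows, beginning 232 bases before the start and marked in capitals here.
Gabrb2, chr11:42420190-42420439, plus strand: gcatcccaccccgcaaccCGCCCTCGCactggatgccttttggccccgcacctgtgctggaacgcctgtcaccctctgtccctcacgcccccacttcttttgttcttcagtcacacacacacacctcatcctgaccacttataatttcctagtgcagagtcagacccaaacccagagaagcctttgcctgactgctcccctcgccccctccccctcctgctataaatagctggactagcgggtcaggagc

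Scaled by exon length, Gabra2 was the most abundant of the 7 transcripts in the dark group, at 522 ± 198 normalised counts per kilobase (SD, n = 6), and Gabra3 followed at 374 ± 149. In the light group the order of these alpha subunits was reversed, with Gabra3 at 340.0 ± 27.3 and Gabra2 at 286 ± 19.3 per kilobase. The other alpha subunits were lower. Gabra4 stood at 141 ± 34.3 per kilobase in the dark and 190.2 ± 22.8 in the light group, and Gabra5 at 169 ± 46.0 and 80.0 ± 11.9. Among the beta subunits Gabrb2 (225 ± 36.4 in the dark group) was above Gabrb1 (189 ± 47.2), within their spread. Gabrd was at 124 ± 101 per kilobase in the dark and 188 ± 19.6 in the light group. In the dark group neighbours among the 5 lowest of the 7 means were separated by less than the spread between libraries, and with the longest transcript in place of all exons Gabrb1 fell from rank 4 to rank 6.

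The makeup of the alpha subunit transcripts differed between the dark group and the rest. Among the length-scaled counts of Gabra2, Gabra3, Gabra4 and Gabra5, Gabra2 made up 42.9% ± 4.40 (SD, n = 6) in the dark group, against 31.9% ± 1.68 in the light, 32.8% ± 3.24 in the psilocybin-dark and 28.8% ± 1.604 in the psilocybin-light group. The share of Gabra5 was 14.6% ± 3.33 in the dark group and between 8.98% and 10.1% in the means of the others. Gabra4 went the other way, from 12.3% ± 3.07 in the dark group to 21.2% ± 1.55, 21.1% ± 2.503 and 22.7% ± 1.26. The share of Gabra3 was 30.2% ± 3.67 in the dark group and 37.9% ± 1.404, 35.9% ± 2.81 and 39.3% ± 1.48 in the others. For Gabra4 the highest dark library (17.7%) lay below the lowest of the other 18 (18.0%). These shares do not depend on the scaling between libraries, and they are given without a test.

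**Figure D1:**
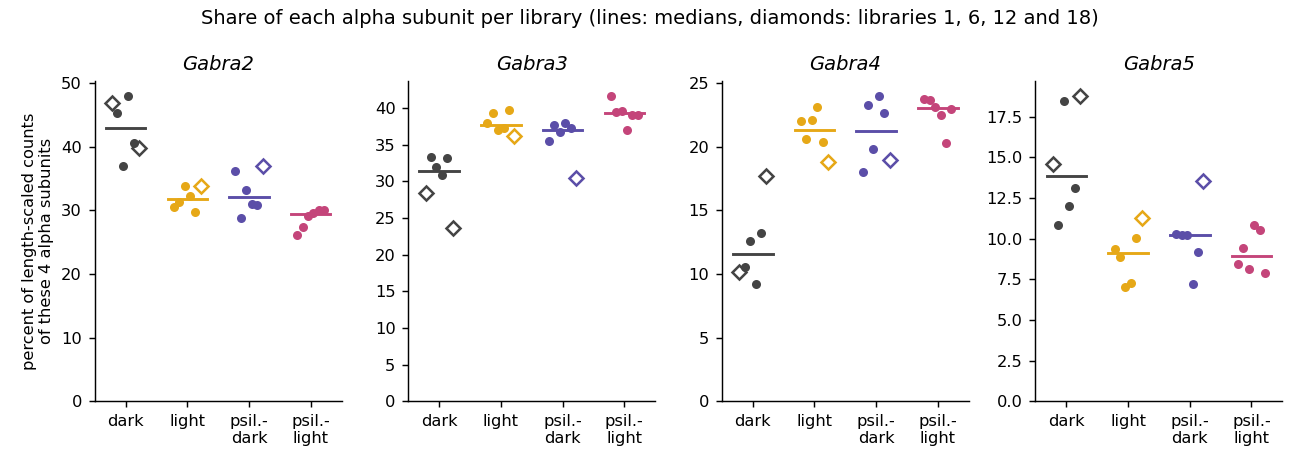
Percent of the length-scaled counts of Gabra2, Gabra3, Gabra4 and Gabra5 held by each subunit (vertical axis, from 0) in each library, by group. Points are libraries, lines are medians of 6 and open diamonds are libraries 1, 6, 12 and 18. The dark group has higher shares of Gabra2 (median 42.9% against 29.4% to 32.1%) and Gabra5 and lower shares of Gabra3 and Gabra4.

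Gabra2 encodes the alpha 2 subunit, found at synapses on the axon initial segment of pyramidal cells among other sites. Its lowest, median and highest normalised counts were 2352, 4432 and 7038 in the dark group, 2424, 2511 and 2891 in the light group, 2421, 2667 and 3622 in the psilocybin-dark group, and 1981, 2316 and 2520.2 in the psilocybin-light group. Dark libraries 1 to 5 (3408 to 7038) were above all 12 libraries of the light and psilocybin-light groups, and dark library 6 (2352) lay among them. Gabra2 fell by 0.87 ± 0.17 (SE) on the log2 scale in light against dark (adjusted p = 0.00063, edgeR quasi-likelihood test over all genes), 0.74 ± 0.17 in psilocybin-dark against dark (adjusted p = 0.0033) and 1.03 ± 0.17 in psilocybin-light against dark (adjusted p = 8.6e-05). That is 1.82-fold, 1.67-fold and 2.04-fold lower than dark. Without dark libraries 2 to 5 none of these 3 differences was called (log2 difference -0.17, -0.04 and -0.32, adjusted p = 0.34, 0.84 and 0.059). With the hippocampus list as a covariate they were -0.55 ± 0.29, -0.41 ± 0.30 and -0.67 ± 0.31 and were not called (adjusted p = 0.27, 0.67 and 0.20).

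Gabra5 encodes the alpha 5 subunit, best known for its high level in hippocampus and for tonic inhibition there. Its lowest, median and highest counts were 1066, 1506 and 2170.3 in the dark group, 588, 746 and 832 in the light group, 596, 891 and 1038 in the psilocybin-dark group, and 643, 722 and 883 in the psilocybin-light group. All 6 dark libraries lay above all 18 others, and the 2 lowest of them were libraries 1 and 6. Gabra5 fell by 1.08 ± 0.16 (SE) on the log2 scale in light against dark (adjusted p = 2.7e-05), 0.82 ± 0.16 in psilocybin-dark against dark (adjusted p = 0.00062) and 1.04 ± 0.16 in psilocybin-light against dark (adjusted p = 2.4e-05). In each comparison the exact permutation p, two-sided and unadjusted, was 0.0022, the smallest that 6 libraries against 6 allow. The hippocampus list moved with it, as its summed level in the dark group did not overlap the other groups either. With the mean log2 level of that list as a covariate, the differences were -0.69, -0.41 and -0.60 and none was called (adjusted p = 0.073, 0.56 and 0.14). Without dark libraries 2 to 5 the difference in psilocybin-dark against dark was -0.34 and was not called (adjusted p = 0.12), and the other 2 still were.

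Gabra3 encodes the alpha 3 subunit. Its counts in the dark group were split, with 1591 in library 1, 1076 in library 6 and 2857 to 3623 in libraries 2 to 5. The lowest, median and highest counts were 1995, 2405 and 2528 in the light group, 1759.7, 2418 and 2734 in the psilocybin-dark group and 2240.2, 2455 and 2512 in the psilocybin-light group. The libraries with high cerebellum markers were the lowest in their groups, 6 and then 1 in the dark, 12 in the psilocybin-dark and 18 in the light group. Over all 24 libraries the differences from dark were -0.14 ± 0.19, -0.13 ± 0.19 and -0.10 ± 0.19 (log2, SE) and were not called (adjusted p = 0.62, 0.66 and 0.71). Without those 4 libraries Gabra3 fell by 0.41, 0.38 and 0.41 on the log2 scale and was called in each comparison (adjusted p = 5.4e-05, 0.00016 and 2.7e-05). Without dark libraries 2 to 5 instead, the differences were 0.82, 0.82 and 0.86, called in the opposite direction. No direction can be given for Gabra3 from the dark group as a whole.

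Gabra4 encodes the alpha 4 subunit, the usual partner of delta in thalamus, dentate gyrus and neocortex. Its lowest, median and highest counts were 832, 1589 and 1673 in the dark group, 1515, 1979.9 and 2119 in the light group, 1596, 2030.4 and 2219 in the psilocybin-dark group, and 1701, 2088 and 2174 in the psilocybin-light group. All 6 psilocybin-light libraries lay above all 6 dark libraries, and in the other groups only 1 library reached into the dark range, library 18 (1515) and library 12 (1596). Gabra4 rose by 0.43 ± 0.13 (SE) on the log2 scale in light against dark (adjusted p = 0.015), 0.50 ± 0.13 in psilocybin-dark against dark (adjusted p = 0.0073) and 0.52 ± 0.13 in psilocybin-light against dark (adjusted p = 0.0032), or 1.35-fold, 1.42-fold and 1.43-fold. Without libraries 1, 6, 12 and 18 the rises were smaller, 0.29, 0.36 and 0.33, and were called (adjusted p = 0.00092, 0.00018 and 0.00017). They were larger without dark libraries 2 to 5, 0.94, 1.00 and 1.03, and were called (adjusted p = 5.1e-05, 3.3e-05 and 1.5e-05). With the hippocampus list as a covariate they were 0.08, 0.13 and 0.13 and were not called (adjusted p = 0.86, 0.86 and 0.79).

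**Figure D2:**
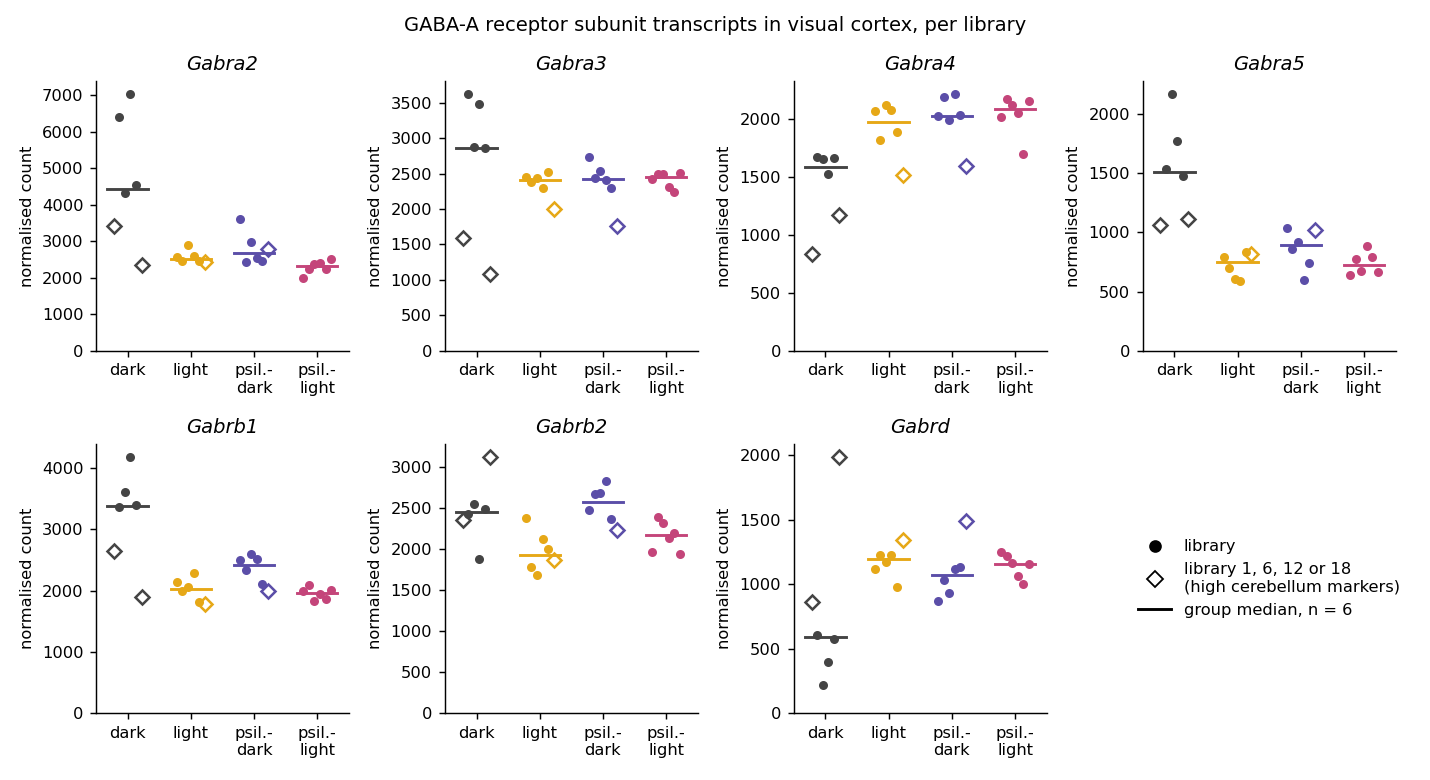
Normalised counts (vertical axis, from 0) of the 7 subunit genes in each library, by group. Points are libraries, lines are medians of 6 and open diamonds are libraries 1, 6, 12 and 18, which have high cerebellum markers. The dark group is the most spread, and for Gabra5 its 6 libraries lie above the other 18.

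Beta subunits are present in nearly every GABA-A receptor and hold part of the GABA binding site. Gabrb1 had lowest, median and highest counts of 1901, 3375 and 4179 in the dark group, 1773, 2028 and 2281 in the light group, 1985, 2410.4 and 2593 in the psilocybin-dark group, and 1829.7, 1965 and 2082 in the psilocybin-light group. Dark libraries 1 to 5 (2649 to 4179) lay above all 18 others, and library 6 (1901) did not. Gabrb1 fell by 0.66 ± 0.12 (SE) on the log2 scale in light against dark (adjusted p = 0.00031), 0.44 ± 0.12 in psilocybin-dark against dark (adjusted p = 0.011) and 0.71 ± 0.12 in psilocybin-light against dark (adjusted p = 0.00012). Without dark libraries 2 to 5 these were -0.18, 0.04 and -0.21 and none was called (adjusted p = 0.22, 0.81 and 0.13). With the hippocampus list as a covariate they were -0.52 ± 0.21, -0.30 ± 0.21 and -0.55 ± 0.22 and were not called (adjusted p = 0.14, 0.67 and 0.15).

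Gabrb2, an abundant beta subunit of synaptic receptors in adult cortex, showed another pattern. Its lowest, median and highest counts were 1877, 2453 and 3123 in the dark group, 1684, 1929 and 2377 in the light group, 2229, 2574 and 2828 in the psilocybin-dark group, and 1940.5, 2165 and 2389 in the psilocybin-light group. The psilocybin-dark group lay within the range of the dark group, and the light group sat lower than both, with overlap. Gabrb2 fell by 0.32 ± 0.096 (SE) on the log2 scale in light against dark (adjusted p = 0.013), whereas psilocybin-dark against dark gave 0.04 ± 0.096 (adjusted p = 0.79) and psilocybin-light against dark -0.20 ± 0.096 (adjusted p = 0.11). Without libraries 1, 6, 12 and 18 the difference in light against dark was -0.23 and was not called (adjusted p = 0.057). Without dark libraries 2 to 5 that in psilocybin-light against dark was -0.34 and was called (adjusted p = 0.026). Gabrb2 was the only one of the 7 genes called against dark with the hippocampus list as a covariate. It was at -0.59 in light against dark (adjusted p = 0.011) and at -0.49 in psilocybin-light against dark (adjusted p = 0.034). The difference in psilocybin-light against dark was not called without the covariate.

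Gabrd encodes the delta subunit of extrasynaptic receptors, strongly expressed by cerebellar granule cells as well as in forebrain. Its counts in the dark group were 866 in library 1, 606, 221, 397 and 576 in libraries 2 to 5, and 1988 in library 6. The lowest, median and highest were 975, 1199 and 1339.7 in the light group, 868, 1073 and 1487 in the psilocybin-dark group, and 1005, 1158 and 1247 in the psilocybin-light group. The highest library of the dark, light and psilocybin-dark groups was in each case one with high cerebellum markers (6, 18 and 12). Over all 24 libraries the differences from dark were 0.60 ± 0.31, 0.49 ± 0.31 and 0.56 ± 0.31 (log2, SE) and were not called (adjusted p = 0.14, 0.25 and 0.16). Without dark library 6 alone Gabrd rose by 1.14, 1.04 and 1.10 and was called in each comparison (adjusted p = 0.00024, 0.00079 and 0.00026). Without libraries 1, 6, 12 and 18 the dark group held 221 to 606 and the other groups 868 to 1247, and the rises were 1.34, 1.16 and 1.34, or 2.53-fold, 2.24-fold and 2.54-fold (adjusted p = 4.9e-06, 3.1e-05 and 2.5e-06). Without dark libraries 2 to 5 the differences were -0.28, -0.38 and -0.31 and were not called (adjusted p = 0.30, 0.15 and 0.23).

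**Figure D3:**
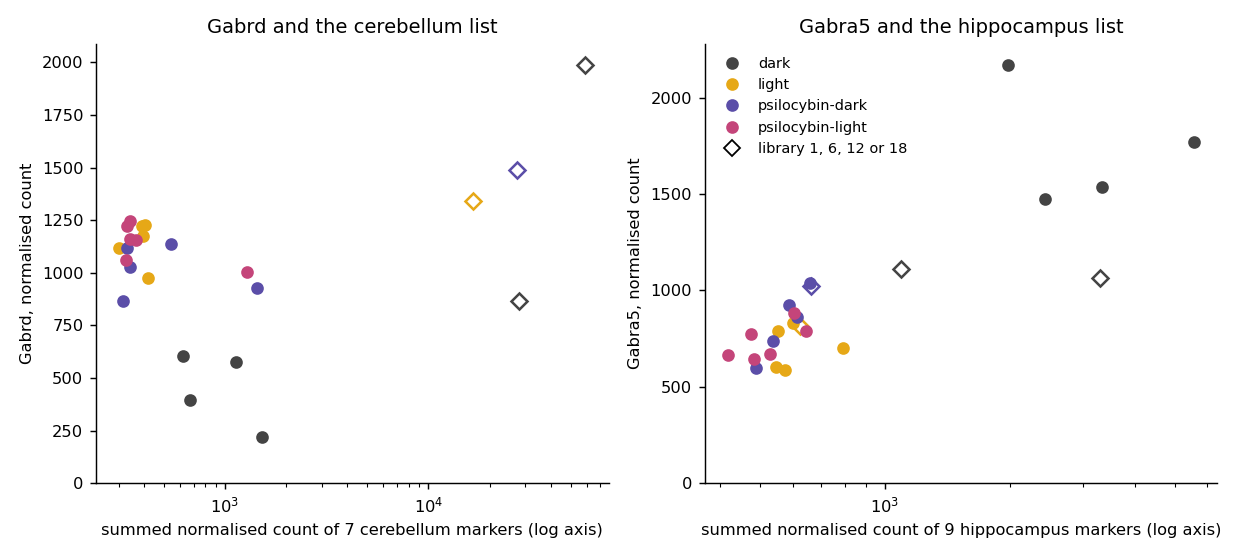
Left, normalised count of Gabrd (vertical axis, from 0) against the summed normalised count of 7 cerebellum markers (log axis). Right, Gabra5 against the sum of 9 hippocampus markers (log axis), each point a library and open diamonds libraries 1, 6, 12 and 18. Libraries with high cerebellum markers are the highest for Gabrd in 3 groups, and the 6 dark libraries are highest on both axes of the right panel.

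Counted over the 7 genes, 1 was called higher and 4 lower in light against dark, where 15.4% of all genes tested were called higher and 16.5% lower (adjusted p under 0.05). In psilocybin-dark against dark 1 was called higher and 3 lower, against 11.9% and 12.8% of all genes. In psilocybin-light against dark these were again 1 and 3, against 17.4% and 21.0%. The groups did not overlap for 1, 1 and 2 of the 7 genes, against 10.0%, 5.58% and 15.8% of all genes tested. The median log2 difference of the 7 genes was -0.32, -0.13 and -0.20, against -0.01, -0.02 and -0.02 over all genes. Without libraries 1, 6, 12 and 18, 2 of the 7 were called higher and 4 lower in each of the 3 comparisons, against 43.1%, 38.3% and 48.2% of all genes called in either direction. With the hippocampus list as a covariate 1, 0 and 1 of the 7 were called, Gabrb2 in both cases, and 863, 0 and 1033 of all genes. In fits of only the 12 libraries compared, Gabra4 (adjusted p = 0.072) and Gabrb2 (adjusted p = 0.059) were not called in light against dark, nor were Gabra4 (adjusted p = 0.051) and Gabrb1 (adjusted p = 0.077) in psilocybin-dark against dark. The 3 comparisons share the same 6 dark libraries, so like results in them are not independent.

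**Figure D4:**
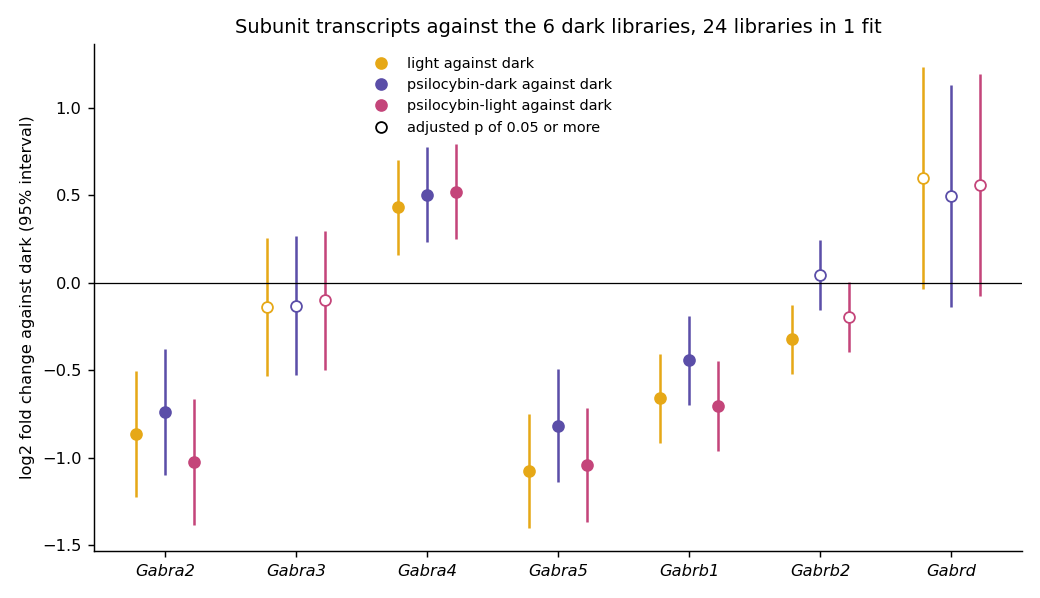
Log2 fold change of each subunit gene against the dark group (vertical axis) in the light, psilocybin-dark and psilocybin-light groups. Bars are 95% intervals from a fit of 24 libraries, and open circles have an adjusted p of 0.05 or more. Gabra2, Gabra5 and Gabrb1 lie below 0 and Gabra4 above 0 in all 3.

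The comparisons that leave out the dark group were much smaller. In psilocybin-light against light, which asks what psilocybin adds under light, 0 of the 7 genes were called by edgeR, 0 had an unadjusted p under 0.05 and 0 were called by DESeq2, where 0.608% of all genes were called by edgeR. The 7 log2 differences lay between -0.16 (Gabra2, 95% interval -0.52 to 0.20) and 0.13 (Gabrb2, 95% interval -0.07 to 0.33). For Gabrd the 95% interval was the widest, -0.67 to 0.59. In psilocybin-light against psilocybin-dark 0 of the 7 were called by edgeR or DESeq2, against 6.38% of all genes, and 2 had an unadjusted p under 0.05. These were Gabrb1 (-0.26 ± 0.12, adjusted p = 0.24) and Gabrb2 (-0.24 ± 0.096, adjusted p = 0.15). Both were called when only these 12 libraries were fitted, where 12.1% of all genes were called. In psilocybin-dark against light 0 of the 7 were called by edgeR, against 0.456% of all genes. Gabrb2 was 1.29-fold higher in the psilocybin-dark group (0.37 ± 0.096 on the log2 scale, adjusted p = 0.067, 1 gene with an unadjusted p under 0.05), and DESeq2 called it.

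The interaction asks whether light and psilocybin together changed a gene by more or less than the sum of each alone. It was called for 1 of the 7 genes, against 8.75% of all genes tested. For Gabra5 light alone gave -1.08, psilocybin alone -0.82 and both together -1.04 on the log2 scale, an interaction of 0.85 ± 0.22 (SE, 95% interval 0.39 to 1.31, adjusted p = 0.020). Gabra2, Gabra4 and Gabrb1 had unadjusted p values under 0.05 and interactions of 0.58 ± 0.24, -0.41 ± 0.18 and 0.40 ± 0.17 (adjusted p = 0.14, 0.16 and 0.15). Each sign is opposite to that of the gene's difference from dark. The interaction uses the dark group. For Gabra5 it was 0.37 without dark libraries 2 to 5 (adjusted p = 0.19) and 0.50 with the hippocampus list as a covariate (adjusted p = 0.51), and was called in neither. With that covariate it was called for 0 of the 7 genes and for 0 of all genes tested (1542 at an unadjusted p under 0.05).

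Of the 12 other subunit genes 9 were tested. In light against dark 0 were called higher and 3 lower (Gabrg1, Gabrq and Gabre), where 15.4% of all genes were called higher and 16.5% lower. In psilocybin-dark against dark these were 2 and 3, against 11.9% and 12.8%, and in psilocybin-light against dark 0 and 4, against 17.4% and 21.0%. Gabrg1, a neighbour of Gabra2 on chromosome 5, fell by 0.59 ± 0.13, 0.59 ± 0.13 and 0.72 ± 0.13 (log2, SE, adjusted p = 0.0016, 0.0022 and 0.00019). Gabrg1 with the hippocampus list as a covariate was at -0.23, -0.21 and -0.33 and was not called (adjusted p = 0.52, 0.76 and 0.36), and without dark libraries 2 to 5 it was called only in psilocybin-light against dark (adjusted p = 0.063, 0.062 and 0.017). The theta subunit gene Gabrq and the epsilon subunit gene Gabre, both neighbours of Gabra3 on chromosome X, are among the genes called lower. They passed the filter on low counts only through the dark group, so their lower calls in the counts above carry no weight. Their levels are given without a test. Apart from them, Gabrg1 alone was called lower in light and in psilocybin-dark against dark, and Gabrg1 and Gabra6 in psilocybin-light against dark. Gabrq had a median of 53.8 and a highest count of 510 (library 1) in the dark group, and at most 20.3 in the other groups. Gabre had a median of 11.5 and a highest count of 111 (library 1) in the dark group, and at most 7.03 elsewhere. Gabra6, a cerebellar granule cell subunit, had counts of 13.3 to 7131 in the dark group and of 0 to 30.1 in psilocybin-light libraries. It was called lower in psilocybin-light against dark (adjusted p = 0.014), but not without dark libraries 1 and 6 (adjusted p = 0.36) or with the hippocampus list as a covariate (adjusted p = 0.086).

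Among 20 genes of receptor assembly, trafficking and anchoring, 4 were called higher and 5 lower in light against dark (15.4% and 16.5% of all genes), 3 and 3 in psilocybin-dark against dark (11.9% and 12.8%), and 4 and 6 in psilocybin-light against dark (17.4% and 21.0%). Hap1, a huntingtin partner that aids return of receptors to the surface, had a median of 5077 in the dark group and 1536 in the light group and fell by 1.72 ± 0.29 (log2, SE), 1.76 ± 0.29 and 1.76 ± 0.29 (adjusted p = 0.00014, 0.00019 and 7.2e-05). Plcl2, a PRIP family protein that binds receptor subunits, rose by 0.62 ± 0.13, 0.66 ± 0.13 and 0.56 ± 0.13 (adjusted p = 0.00077, 0.00064 and 0.0012). Kif5a, a kinesin that carries receptor vesicles, rose by 0.49 ± 0.13, 0.42 ± 0.13 and 0.57 ± 0.13 (adjusted p = 0.0053, 0.018 and 0.0012). Iqsec3, a guanine nucleotide exchange factor of inhibitory synapses, rose by 0.26, 0.28 and 0.34 (adjusted p = 0.020, 0.016 and 0.0025). Gabarapl1, of the GABA-A receptor-associated protein family, rose by 0.22 in light against dark (adjusted p = 0.019) and 0.31 in psilocybin-light against dark (adjusted p = 0.0012), and gave 0.12 in psilocybin-dark against dark (adjusted p = 0.23). None of these 5 genes was called with the hippocampus list as a covariate, and Hap1 was at -0.51, -0.48 and -0.39 (adjusted p = 0.50, 0.73 and 0.66) and Plcl2 at 0.20, 0.22 and 0.092 (adjusted p = 0.54, 0.71 and 0.82). Without dark libraries 1 and 6, Kif5a in psilocybin-dark against dark (adjusted p = 0.081) and Gabarapl1 in light against dark (adjusted p = 0.057) were not called, and without dark libraries 2 to 5 Iqsec3 in light against dark was not (adjusted p = 0.052).

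Among 10 genes of GABA supply, chloride transport and the GABA-B receptor, 2 were called higher and 4 lower in light against dark (15.4% and 16.5% of all genes), 2 and 4 in psilocybin-dark against dark (11.9% and 12.8%), and 3 and 4 in psilocybin-light against dark (17.4% and 21.0%). Gad2, a GABA-synthesising enzyme, fell by 0.29, 0.20 and 0.31 on the log2 scale (adjusted p = 0.00040, 0.011 and 0.00016). Abat, which breaks GABA down, fell by 0.34, 0.35 and 0.32 (adjusted p = 0.0018, 0.0021 and 0.0022). Slc12a5, which encodes the chloride extruder KCC2, rose by 0.12, 0.17 and 0.25 (adjusted p = 0.046, 0.010 and 0.00020). Gabbr2, a GABA-B receptor subunit, rose by 0.19, 0.32 and 0.31 (adjusted p = 0.049, 0.0027 and 0.0016). None of these 4 genes was called with the hippocampus list as a covariate: Gad2 was at -0.13, -0.034 and -0.13, Abat at -0.084, -0.081 and -0.032, Slc12a5 at -0.0014, 0.038 and 0.11, and Gabbr2 at -0.016, 0.10 and 0.079, with adjusted p from 0.31 to 0.99. Without dark libraries 1 and 6, Slc12a5 (adjusted p = 0.086) and Gabbr2 (adjusted p = 0.20) were not called in light against dark. Of 10 GABAergic neuron markers 4 were called higher and 2 lower in each of the 3 comparisons with dark.

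Over the 24 libraries, Gabra2 and Gabrb1 varied together (Pearson r of log2 CPM 0.91, and 0.79 once group means were subtracted), and Gabrd varied against Gabrb1 (r = -0.85 and -0.80). The values share libraries and scaling, so they are a description only. Among the 12393 genes whose mean count reached 50, the transcripts most like Gabra2 were Pcdh19 (r = 0.97), Gpc4 (0.96) and Ccdc148 (0.96). For Gabra3 they were Hpcal4 (0.98), Cacng8 (0.97) and Dapk1 (0.97), and for Gabra4 Ppp3r1 (0.98), Phactr1 (0.98) and Sirpa (0.98). Gabra5 was most like Pls3 (0.96), Ntng1 (0.95) and Crim1 (0.95), and Gabrb1 most like Armcx4 (0.97), Cbl (0.97) and Pcdh17 (0.97). Gabrb2 had the loosest neighbours, Pank3 (0.89), Snx13 (0.89) and Cnot1 (0.86), and Gabrd was most like Tuba8 (0.96), Syndig1 (0.93) and Lrrc49 (0.91). With group means subtracted these 21 values lay between 0.77 and 0.98.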

How the data were processed

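The authors deposited 1 table of raw counts per gene, 24 libraries by 55414 genes. Per the labels and the study's methods, poly-A RNA-seq reads were trimmed, aligned and counted. The submitters' notes name cutadapt, STAR, HTSeq and mm10 without versions, whereas the methods name GRCm39, and the gene identifiers matched GENCODE vM39 (GRCm39) for 14427 of the 14464 genes tested. The strand setting is not given in the sources used here.

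Genes that reached 30 counts in any library were tested with edgeR 4.0.16 (quasi-likelihood test, TMM, 1 term per group, all 24 libraries, limma 3.58.1, R 4.3.3), with Benjamini-Hochberg adjustment over all genes and calls at an adjusted p under 0.05. The fit was tested on simulated data. Intervals use the t quantile of the fit's total degrees of freedom. Single genes were also compared by two-sided exact permutation over 924 splits. DESeq2 1.42.0 and sva 3.50.0 served as alternatives. The common biological coefficient of variation was 0.182, and 31758 genes had a count. Log2 CPM values used a prior count of 2. Figures used Python 3.11.15 and matplotlib 3.10.9. The 7 subunit genes and the gene lists were chosen with earlier results of these data known. Of each list of GABA-related genes, the 5 with the smallest adjusted p in any comparison with dark were named, except some genes that are not reported here, and for each subunit gene the 3 most correlated genes whose mean count reached 50. Fibcd1 and Slc17a7 were named after their values were seen.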

Additional observations from a re-analysis of the deposited data

Results flagged for a closer look

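Within the 28 combinations of a subunit gene and a group of 6 libraries, 4 held a library set apart by Dixon's ratio (the gap to the nearest library over the range of the group, above its 95% critical value), and chance flags about 1 in 20. Gabra2 in light library 15 (2891) gave a ratio of 0.650, Gabra4 in psilocybin-dark library 12 (1596) 0.636, Gabra4 in psilocybin-light library 23 (1701) 0.667 and Gabrd in dark library 6 (1988) 0.635. Libraries 12 and 6 are among those with high cerebellum markers, and library 23 had the highest cerebellum sum of the psilocybin-light group (1288).

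The difference between light and dark in Gabra5 was -1.08 under PBS and -0.23 under psilocybin on the log2 scale, and the interaction was 0.85 (adjusted p = 0.020, edgeR). It was 0.37 without dark libraries 2 to 5 (adjusted p = 0.19) and 0.50 with the hippocampus list as a covariate (adjusted p = 0.51), and all 3 signs are opposite under the light exposure of the sample labels.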

How the results depend on the processing

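No paired analysis was possible because the library numbers are not shared between groups. Against dark, the main counts of subunit genes called were 5 in the light, 4 in the psilocybin-dark and 4 in the psilocybin-light group. Fits of only the groups compared called 3 and 2 in the light and psilocybin-dark groups, 2 in psilocybin-light against psilocybin-dark (main 0) and 1 in psilocybin-dark against light (main 0). Of all genes 21.4%, 13.8%, 12.1% and 1.81% were called in these fits, in the same order. With the hippocampus list as a covariate the calls against dark were 1, 0 and 1, that in psilocybin-dark against light 1 and that of the interaction 0 (main 1). Of all genes 5.97%, 0%, 7.14%, 0.843% and 0% were called there, in the same order. The differences that changed sign with that covariate were, in psilocybin-dark against dark, Gabrb2 (-0.23) and Gabrd (-0.066) and, in psilocybin-light against dark, Gabra3 (0.029) and Gabrd (-0.084). With 1 surrogate variable the calls were 1 in psilocybin-light against psilocybin-dark, 1 in psilocybin-dark against light and 4 in the interaction. Without dark libraries 1 and 6 they were 1, 1 and 5, and without libraries 1, 6, 12 and 18 they were 2, 1 and 6. Without dark libraries 2 to 5, 2 genes were called in psilocybin-dark against dark, where 41.2% of all genes were called. With those libraries left out, 1 was called in psilocybin-dark against light (2.84% of all genes). The interaction was called for 2 (Gabra3 and Gabra4, not Gabra5), against 28.0% of all genes. Signs then changed for Gabra3 (0.82, 0.82 and 0.86 in the light, psilocybin-dark and psilocybin-light groups), Gabrd (-0.28, -0.38 and -0.31), and in psilocybin-dark against dark for Gabrb1 (0.040) and Gabrb2 (-0.10). The DESeq2 Wald test called 1 in psilocybin-dark against light, and 2.80% of all genes. At an adjusted p under 0.01 the calls were 3 in light against dark and 0 in the interaction, against 2853 and 320 of all genes. The cause of these shifts was not tested.

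With 1 library left out in turn, the count ranged from 0 to 1 in psilocybin-dark against light (1 without dark library 4 or 6, library 12 or library 13) and from 1 to 4 in the interaction (4 without dark library 6). The shares of all genes called in these fits are not given here. Gabra3 ranged from -0.25 to 0.020 in psilocybin-light against dark (above 0 without dark library 2 or 4) and Gabrb2 from -0.025 to 0.13 in psilocybin-dark against dark (below 0 without dark library 4). Without dark library 4, Gabrb2 was called in psilocybin-light against dark (adjusted p = 0.023, edgeR). Gabra2, Gabra4, Gabra5 and Gabrb1 were called in all 24 such fits in each comparison with dark. With light and dark exchanged as the sample labels give them, light against dark was 0.87 for Gabra2, 0.14 for Gabra3, -0.43 for Gabra4, 1.08 for Gabra5, 0.66 for Gabrb1, 0.32 for Gabrb2 and -0.60 for Gabrd. Over all results and settings, 541 values with 1 library left out kept their direction and their side of the threshold, 8 passed it newly and 3 changed sign. Of those under other settings 168 kept both, 24 passed newly, 25 no longer passed and 19 changed sign.

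Over all genes, light against dark called 4611 (863 with the hippocampus list, 3073 with only the groups compared), psilocybin-dark against dark 3575 (0 and 1972, 5416 without libraries 1, 6, 12 and 18, and 5915 without dark libraries 2 to 5) and psilocybin-light against dark 5551 (1033 with the hippocampus list). The lowest normalised count of the 7 genes was 221 (Gabrd, dark library 3), so that counting error was small beside the spread between libraries.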
